A study of Mus musculus with 24 samples.

Results

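NK cells were isolated from the lungs of tumour-bearing mice that lacked Fcer1g (KO) and were compared with NK cells from the spleens of naive KO mice. The comparison was formed by the labels of genotype and tissue and held 8 of the 24 RNA libraries of the series, 4 of KO lung and 4 of KO naive spleen. Every mouse on either side carried the KO genotype, so the comparison describes lung against spleen within NK cells that lack the FcRγ chain. The study's title names FcRγ, the labels give the genotype only as KO, and the lung libraries carry tumour-bearing lung as their tissue while their treatment field reads Naive, and the splenic libraries of this comparison had no IL-15. The labels and the series description do not give the tumour model, the ages of the mice, whether mice were pooled or which part of the gene was deleted. Tissue, tumour and the preparation of cells from each tissue changed together and cannot be told apart. The matching WT libraries, 4 of tumour-bearing lung and 4 of naive spleen, were used to ask whether a change differed between genotypes. The 4 libraries of a group are described as biological replicates.

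NK cells are innate lymphocytes that kill infected and transformed cells and secrete interferon gamma. FcRγ, the product of Fcer1g, is a signalling adaptor with an immunoreceptor tyrosine-based activation motif that pairs with the Fc receptor CD16 and with NKp46, the product of Ncr1. NK cells in the spleen belong largely to the circulating pool, whereas lung preparations can hold circulating, marginated and resident cells. Receptor engagement, stress and enzymatic tissue dissociation are each known to induce immediate early genes within minutes, among them the Fos, Jun, Nr4a and Egr transcription factors, followed by inhibitors that shut the same pathways down.

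Libraries held 24.95 to 26.75 M expected counts in KO lung, and 9.683 to 27.46 M in KO naive spleen, where replicate 1 was the shallowest at 9.683 M. The same library stood apart in the third principal component, which carried 7.43% of the variance, and 1.182% of its counts were mitochondrial, against 4.186% to 9.285% in the other KO naive libraries and 8.487% to 10.73% in KO lung. Counts over all genes are given with and without it. Fcer1g (ENSMUSG00000058715, GRCm38 chromosome 1, 171229572 to 171234365) had 16.2, 14.9, 12.8 and 13.1 CPM (TMM-scaled count per M counts) in KO lung, against 1.25, 6.85, 4.17 and 2.82 CPM in KO naive spleen. The residual signal was higher in every KO lung library than in any KO naive library (log2 change 1.84 ± 0.27 SE, adjusted p = 5.32e-06, edgeR). In WT the gene averaged 594 ± 115 CPM in lung and 730 ± 78.8 CPM in naive spleen (SD, n = 4 each), far above all KO libraries.

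Transcripts that define NK cells dominated both groups. The summed level of 10 NK markers was 12956 to 14766 CPM in KO lung and 17512 to 20682 CPM in KO naive spleen, and 7 of the 10 were lower in KO lung. Markers of other cell types were low in both groups but were not equal. The sum of 10 monocyte and macrophage markers was 153, 640, 360 and 271 CPM in KO lung replicates 1 to 4, against 8.77 to 18.7 CPM in KO naive spleen, and Lyz2 made up most of the KO lung sum. Endothelial markers summed to 63.0 to 107 CPM in KO lung, against 4.98 to 8.81 CPM in KO naive spleen. Lung epithelial markers spanned 37.0 to 439 CPM in KO lung and 7.70 to 50.5 CPM in KO naive spleen. Melanocyte markers such as Dct, Tyrp1 and Pmel summed to 6.95, 33.8, 55.2 and 27.1 CPM in KO lung replicates 1 to 4 and were at 0 in all 4 KO naive libraries. Platelet markers went the other way, with sums of 19 to 28.78 CPM in KO lung and 35.08 to 57.06 CPM in KO naive spleen. Of the 6 platelet markers, 4 were called lower in KO lung and 0 higher. The sum of 11 T cell markers was 346 to 466 CPM in KO lung and 293 to 338 CPM in KO naive spleen, with 2 members higher, 1 lower and 8 not passing. Trbc1, a T cell receptor constant segment, had 179, 191, 189 and 254 CPM in KO lung, against 105, 88.2, 112 and 92.1 CPM in KO naive spleen (adjusted p = 6.8e-05). Cd8b1 was the other higher member, at 1.21 CPM or less in each KO lung library and 0 in each KO naive library, and Cd3d was lower (log2 change -1.48). In bulk RNA, fewer cells of a type and less RNA per cell cannot be told apart, and the part that other cells play in each result was not tested.

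**Figure D1:**
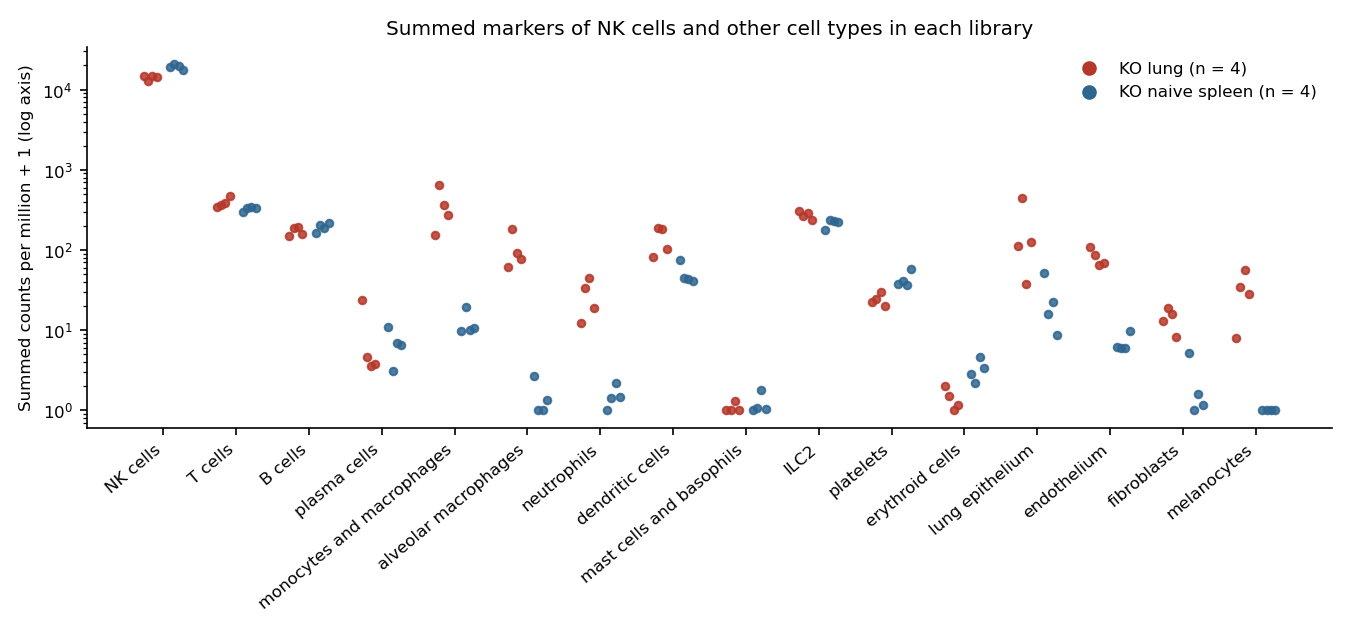
Summed CPM + 1 (log axis) of 16 marker lists in each of the 4 KO lung and 4 KO naive spleen libraries, 1 point per library. NK markers lie near the top in all 8 libraries, while macrophage, endothelial and melanocyte sums are higher in the KO lung libraries, and melanocyte sums are 0 in KO naive spleen.

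Of 14275 genes tested, 6049 (42.4%) differed between KO lung and KO naive spleen at an adjusted p under 0.05. Of these, 3468 (24.3% of the genes tested) were higher in KO lung and 2581 (18.1%) were lower. With an offset for transcript length and GC content the balance turned, with 3100 higher and 3363 lower. At least 2-fold higher were 2024 genes (14.2%), against 485 (3.40%) at least 2-fold lower. Among genes with at least 5 CPM in 4 libraries, these counts were 1144 and 379. All 4 KO lung libraries lay above all 4 KO naive libraries for 3400 genes (23.8%) and below them for 2202 genes (15.4%). Without KO naive replicate 1, 6214 genes passed, of which 5417 were among the 6049, and none of those changed sign. These shares are the background for the gene lists that follow, and the median log2 change over all genes tested was 0.05.

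**Figure D2:**
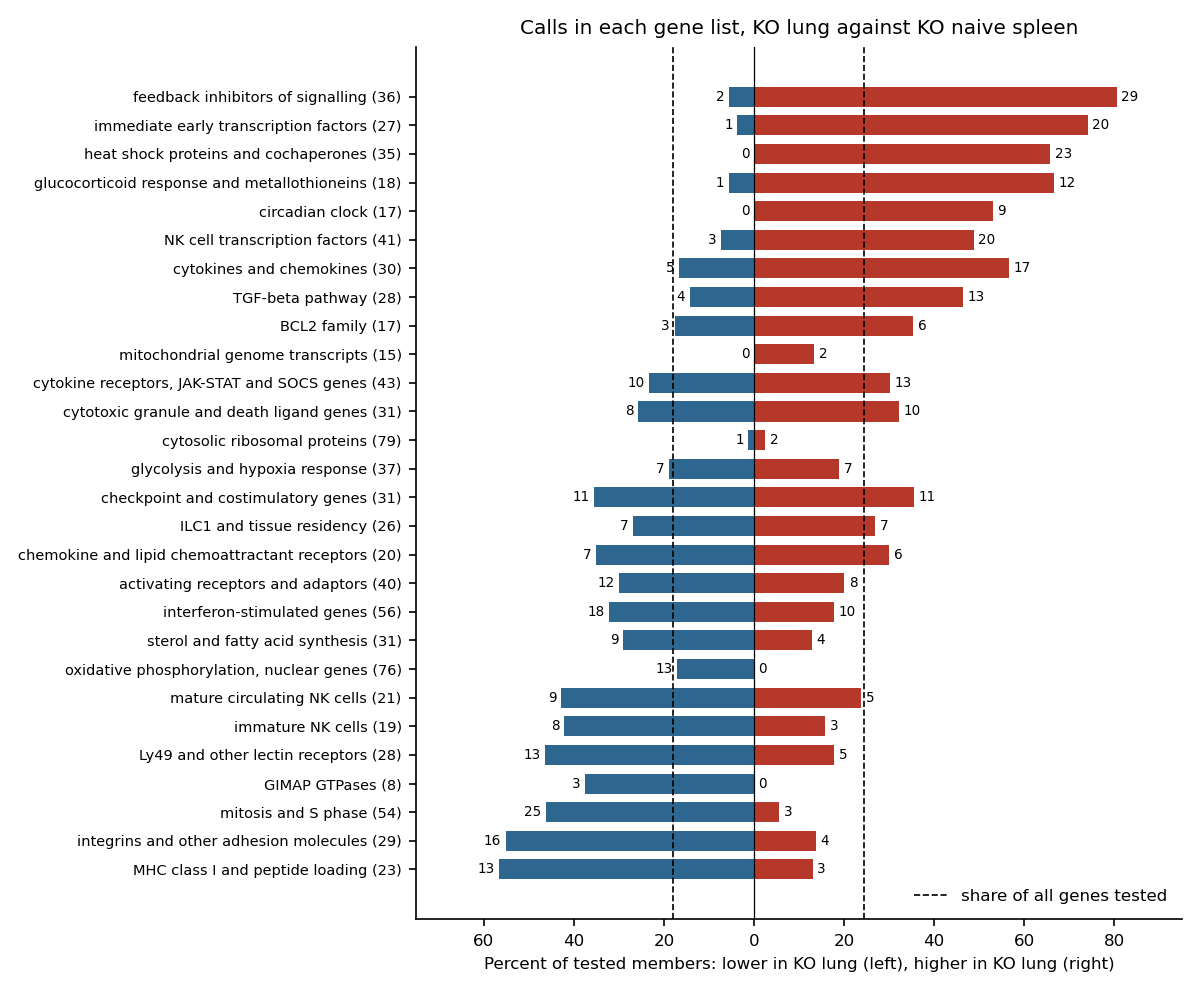
Percent of the tested members of 28 gene lists that were lower (left) or higher (right) in KO lung at an adjusted p under 0.05, with the number of genes at each bar and the number tested in brackets. Dashed lines mark 18.1% lower and 24.3% higher among all genes tested. The lists of feedback inhibitors, immediate early factors, glucocorticoid response genes and heat shock proteins extend furthest to the right, and MHC class I and adhesion genes furthest to the left.

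Immediate early transcription factors were mostly higher in KO lung. Of 27 tested members, 20 were higher in KO lung, 19 of them at least 2-fold, 1 was lower and 6 did not pass, with a median log2 change of 1.93. Nr4a1, an orphan nuclear receptor induced by antigen receptor signalling, had 985, 960, 894 and 906 CPM in KO lung, against 56.0, 32.9, 41.1 and 36.5 CPM in KO naive spleen. The groups did not overlap, and the change was 22.6-fold (log2 change 4.50 ± 0.19 SE, adjusted p = 3.13e-15). Its paralog Nr4a2 averaged 327 ± 37.3 CPM in KO lung and 8.93 ± 2.20 CPM in KO naive spleen (SD, n = 4 each, log2 change 5.18 ± 0.27 SE). Fosl2, an AP-1 subunit, had 820, 869, 900 and 1006 CPM in KO lung, against 65.8, 80.7, 57.4 and 81.6 CPM in KO naive spleen (log2 change 3.65 ± 0.18 SE). The AP-1 genes Fos, Jun, Fosb and Junb rose as well, by 3.19, 3.53, 4.55 and 1.93 on the log2 scale. Atf3, a stress-induced CREB family factor, had 49.6 to 79.3 CPM in KO lung and 0.127 to 2.31 CPM in KO naive spleen. Myc rose by less, to 87.3 ± 5.08 CPM in KO lung, against 48.4 ± 2.81 CPM in KO naive spleen. Batf3, an AP-1 family factor needed by a class of dendritic cells, was lower, with 0.0799 to 0.362 CPM in KO lung, against 1.58 to 3.37 CPM in KO naive spleen. Ier5 averaged 614 ± 53.5 CPM in KO lung and 458 ± 222 CPM in KO naive spleen and did not pass (adjusted p = 0.0975).

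Genes that dampen signalling rose with them. Of 36 tested feedback inhibitors of kinase, NF-κB, G protein and cyclic AMP signalling, 29 were higher in KO lung, 2 were lower and 5 did not pass, with a median log2 change of 1.42. Tnfaip3, which encodes the ubiquitin-editing NF-κB inhibitor A20, had 2967, 3281, 3112 and 3243 CPM in KO lung, against 220, 145, 129 and 144 CPM in KO naive spleen. That was a 19.8-fold change with no overlap (log2 change 4.31 ± 0.19 SE, adjusted p = 6.90e-15). Rgs1, a regulator of G protein signalling that limits chemokine responses, had 563 to 627 CPM in KO lung and 32.7 to 42.6 CPM in KO naive spleen (log2 change 4.02 ± 0.16 SE). Crem, a cyclic AMP-responsive repressor, had 199, 175, 211 and 226 CPM in KO lung, against 10.5, 15.7, 14.6 and 15.6 CPM in KO naive spleen. Its adjusted p of 9.96e-16 was the smallest in the list. Dusp1, a phosphatase of the p38 and JNK kinases, averaged 673 ± 25.9 CPM in KO lung and 52.1 ± 5.29 CPM in KO naive spleen (log2 change 3.69 ± 0.19 SE). The NF-κB inhibitors Nfkbia and Nfkbiz rose by 2.09 and 3.41 on the log2 scale. Dusp7 and Rgs18 were lower in KO lung (log2 changes -0.77 and -1.13), and Rgs3 averaged 297 CPM in KO lung and 275 CPM in KO naive spleen without passing.

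Promoter windows of these genes were searched because many of them are textbook targets of CREB and of heat shock factors. RefSeq windows of 300 bases on GRCm38.p6, running from 250 bases before to 50 after each annotated start, were found for 9348 of the tested gene symbols. On either strand, the cyclic AMP response element TGACGTCA was present in 4 of the 28 feedback inhibitors with a window (14.3%), in 1 of 21 immediate early factors (4.76%) and in 3.52% of all tested genes with a window. The AP-1 element TGANTCA, with its reverse complement TGANTCA, was present in 3 of the 28 feedback inhibitors (10.7%), in 1 of the 21 immediate early factors (4.76%) and in 6.35% of all. The heat shock element, searched on both strands as GAA, TTC and GAA with NN between neighbours, was present in 5 of 28 heat shock genes (17.9%) and in 0.535% of all. The 4 feedback inhibitors with the cyclic AMP element were Btg2, Dusp1, Nfkbid and Ppp1r15a, and the early factor was Maff. The heat shock genes with a match were Chordc1, Dnajb6, Hspd1, Hspe1 and Hsph1, of which Chordc1 and Hspe1 did not pass the test of expression. The windows of Hspd1 and Hspe1 overlap on opposite strands, and their matches are the same bases, counted for both genes. These are matches of letters in short windows and are no measure of binding. The 250 bases before the start are shown for 3 strongly changed genes with the cyclic AMP element and for Hspd1, whose 2 overlapping heat shock matches stand in capitals together, as do the other matches, each read 5′ to 3′ on the strand of the gene.
Maff, chr15:79347270-79347519, plus strand: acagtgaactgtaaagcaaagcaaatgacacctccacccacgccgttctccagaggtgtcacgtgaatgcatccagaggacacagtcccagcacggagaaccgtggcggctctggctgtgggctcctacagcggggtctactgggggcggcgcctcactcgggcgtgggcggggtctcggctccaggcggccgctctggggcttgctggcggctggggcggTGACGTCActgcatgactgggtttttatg
Ppp1r15a, chr7:45526269-45526518, minus strand: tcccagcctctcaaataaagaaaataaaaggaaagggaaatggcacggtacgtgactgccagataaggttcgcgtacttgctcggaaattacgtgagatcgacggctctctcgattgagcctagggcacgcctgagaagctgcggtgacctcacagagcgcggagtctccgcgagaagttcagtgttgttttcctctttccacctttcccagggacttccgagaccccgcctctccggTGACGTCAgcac
Dusp1, chr17:26508473-26508722, minus strand: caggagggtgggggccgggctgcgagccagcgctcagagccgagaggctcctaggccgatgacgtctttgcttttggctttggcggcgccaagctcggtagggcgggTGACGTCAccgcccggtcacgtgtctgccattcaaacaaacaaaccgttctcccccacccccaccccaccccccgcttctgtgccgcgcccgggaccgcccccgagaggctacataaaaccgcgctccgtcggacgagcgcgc
Hspd1, chr1:55087933-55088182, minus strand: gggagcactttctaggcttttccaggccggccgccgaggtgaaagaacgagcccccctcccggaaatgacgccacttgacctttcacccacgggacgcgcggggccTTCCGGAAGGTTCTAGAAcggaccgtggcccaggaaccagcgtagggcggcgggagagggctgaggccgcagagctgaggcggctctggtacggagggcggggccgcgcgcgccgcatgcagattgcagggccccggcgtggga
The element begins 29 bases before the start of Maff, 12 before that of Ppp1r15a and 143 before that of Dusp1. Maff, a small basic leucine zipper factor, had 23.1, 28.1, 30.9 and 34.7 CPM in KO lung, against 0.289, 1.19, 0.759 and 1.27 CPM in KO naive spleen (log2 change 4.94 ± 0.24 SE, adjusted p = 6.28e-14). Ppp1r15a, the GADD34 subunit that directs dephosphorylation of eIF2α, averaged 564 ± 16.6 CPM in KO lung and 28.3 ± 6.19 CPM in KO naive spleen (log2 change 4.33 ± 0.20 SE). Hspd1, a mitochondrial chaperonin, changed much less (log2 change 0.46 ± 0.13 SE, adjusted p = 0.00673).

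Heat shock proteins and cochaperones were mostly higher. Of 35 tested, 23 were higher in KO lung, 0 were lower and 12 did not pass, with a median log2 change of 0.56. At an unadjusted p under 0.05, 1 member was lower in edgeR, and DESeq2 called 0 lower. Without KO lung replicate 1, 2 members were called lower. The inducible HSP70 gene Hspa1a had 433, 114, 321 and 40.7 CPM in KO lung, against 0, 0, 0.211 and 0.873 CPM in KO naive spleen. Hspa1b, its near-identical neighbour, had 792, 214, 629 and 85 CPM in KO lung, against 6.84, 1.92, 2.74 and 1.98 CPM in KO naive spleen. Reads from the pair can be divided between them only by estimate, and both ranked the KO lung libraries in the same order, with replicates 1 and 3 high and replicate 4 low. With KO naive libraries at or near 0 for Hspa1a, its fitted change depends on the model and is not given as a fold. The HSP40 cochaperone Dnaja1 had 281 to 390 CPM in KO lung and 112 to 133 CPM in KO naive spleen (log2 change 1.39 ± 0.17 SE, adjusted p = 4.27e-07). Cytosolic Hsp90aa1 and the HSP110 gene Hsph1 rose by 1.22 and 1.72 on the log2 scale. Hsp90b1, the HSP90 of the endoplasmic reticulum, averaged 643 CPM in KO lung and 593 CPM in KO naive spleen and did not pass (adjusted p = 0.436).

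**Figure D3:**
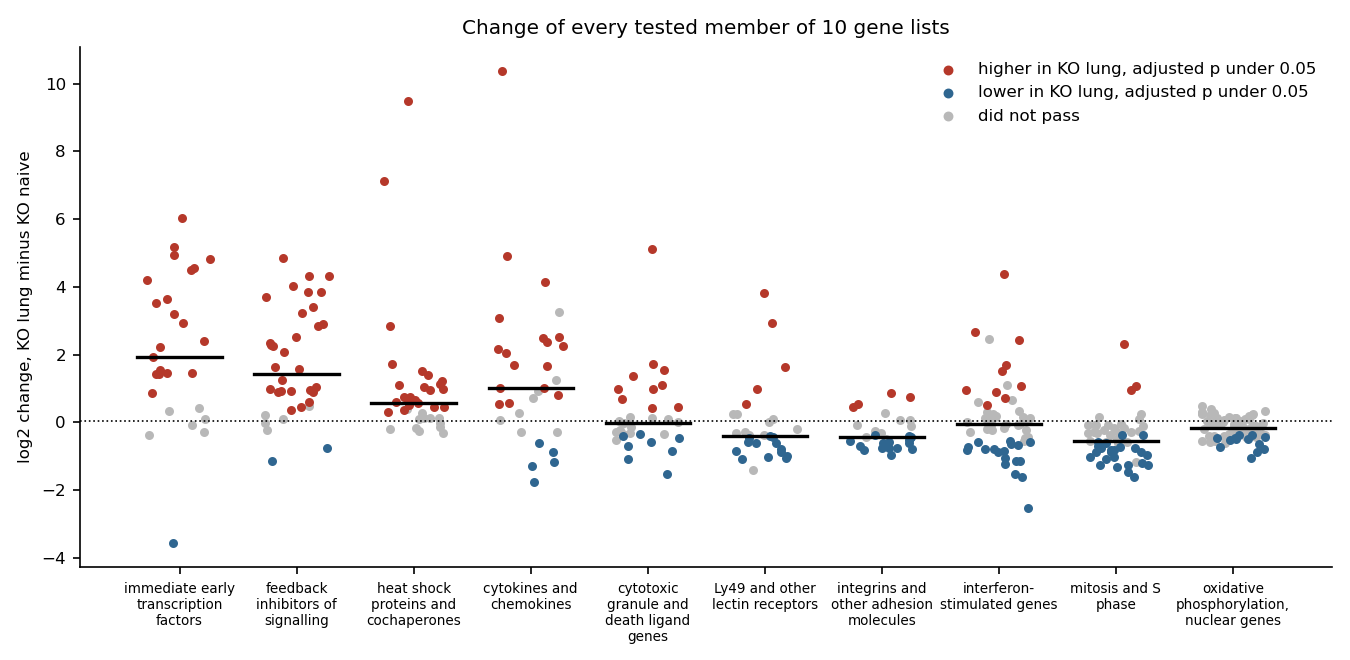
Fitted log2 change (KO lung minus KO naive spleen) of every tested member of 10 gene lists, coloured by call, with the list median as a black bar and the median of all genes as a dotted line. The medians of immediate early factors (1.93), feedback inhibitors (1.42) and cytokines (1.02) lie above the dotted line, and that of mitosis genes (-0.56) below it. Members whose KO naive libraries are at or near 0 CPM have fitted changes that depend on the model and are no measure of size.

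Secreted factors changed in both directions. Of 30 tested cytokines and chemokines, 17 were higher in KO lung, 5 were lower and 8 did not pass. The shares over all genes tested were 24.3% higher and 18.1% lower. Ifng, the main effector cytokine of NK cells, had 441, 372, 359 and 314 CPM in KO lung, against 77.6, 96.8, 84.8 and 72.0 CPM in KO naive spleen (log2 change 2.17 ± 0.19 SE, adjusted p = 1.53e-09). Ccl3, a chemokine that draws leukocytes, had 385 to 494 CPM in KO lung and 60.0 to 93.2 CPM in KO naive spleen (log2 change 2.49 ± 0.19 SE). Its neighbour Ccl4 averaged 488 ± 23.7 CPM in KO lung and 102 ± 34.8 CPM in KO naive spleen. Vegfa, an angiogenic factor that lymphocytes and myeloid cells can both make, had 234, 207, 249 and 309 CPM in KO lung, against 11.8, 12, 17.7 and 14.5 CPM in KO naive spleen (log2 change 4.15 ± 0.25 SE). Its lowest KO lung value was that of replicate 2, the library with the highest macrophage sum. The part that the higher macrophage sum of KO lung plays in the change of Vegfa was not tested. Ltb, a lymphotoxin subunit, was lower, at 54.0 to 74.4 CPM in KO lung and 149 to 172 CPM in KO naive spleen (log2 change -1.27 ± 0.24 SE), and the other members that fell were Tnfsf11, Tnfsf8, Tnfsf14 and Il16. Tnf had 5.18 ± 1.26 CPM in KO lung and 2.65 ± 1.17 CPM in KO naive spleen and did not pass (adjusted p = 0.0759).

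Genes of the cytotoxic machinery did not move as a block. Of 31 tested granule and death ligand genes, 10 were higher in KO lung, 8 were lower and 13 did not pass, with a median log2 change of -0.03. These counts are near the shares over all genes tested, 24.3% higher and 18.1% lower. Gzmb, a granzyme whose protein NK cells make on activation, had 1385, 1117, 1086 and 1045 CPM in KO lung, against 350, 569, 442 and 423 CPM in KO naive spleen (log2 change 1.38 ± 0.17 SE, adjusted p = 4.40e-07). Fasl, the ligand of the death receptor Fas, had 318 to 388 CPM in KO lung and 108 to 140 CPM in KO naive spleen (log2 change 1.54 ± 0.10 SE). The serpin gene Serpinb6b also rose (log2 change 1.11 ± 0.16 SE). Gzmm was lower, at 12.3 to 18.6 CPM in KO lung and 34.3 to 61.4 CPM in KO naive spleen, as were Tnfsf10, the TRAIL gene, and the lysosomal membrane gene Lamp2. The pore-forming Prf1 had 1224 to 1416 CPM in KO lung and 1417 to 1820 CPM in KO naive spleen and did not pass (log2 change -0.30 ± 0.14 SE, adjusted p = 0.0757). Gzma averaged 4584 CPM in KO lung and 5858 CPM in KO naive spleen and did not pass either (adjusted p = 0.0989).

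**Figure D4:**
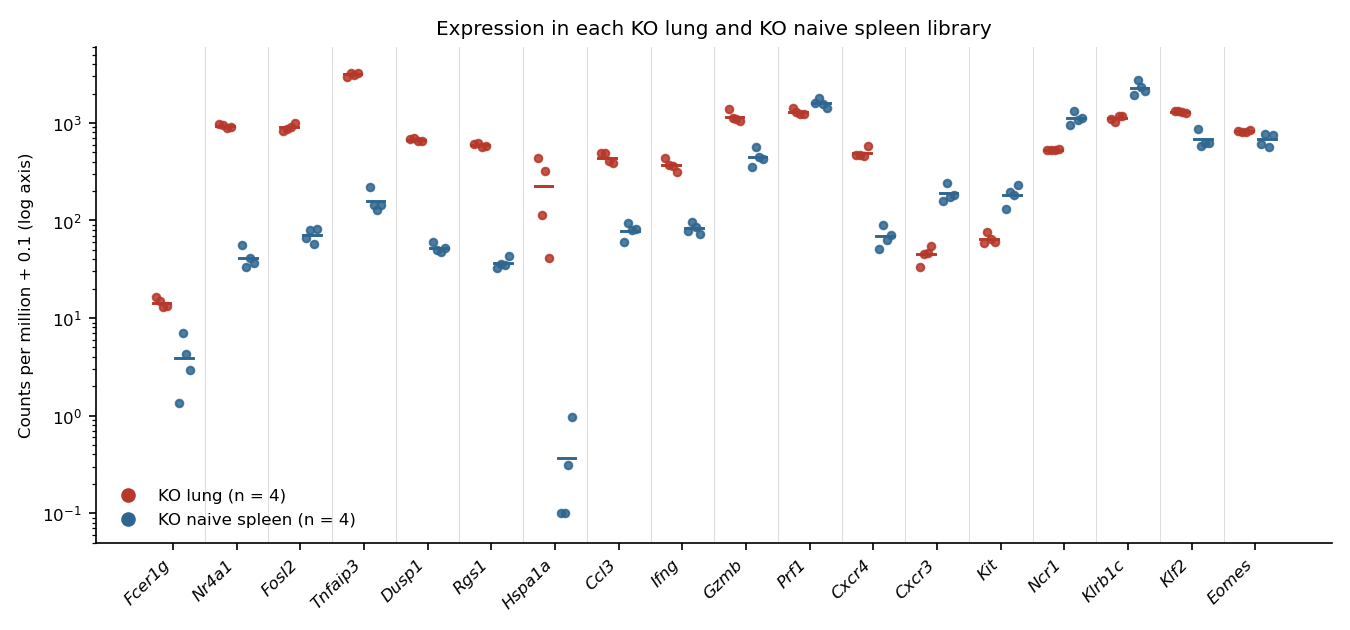
CPM + 0.1 (log axis) of 18 genes in each library, 4 of KO lung and 4 of KO naive spleen, with a bar at each group's mean. Nr4a1, Fosl2, Tnfaip3, Dusp1 and Rgs1 are tightly grouped and far apart between tissues, Hspa1a is widely spread within KO lung, and Cxcr3, Kit, Ncr1 and Klrb1c are lower in KO lung.

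Among lectin receptors, more were called lower than higher. Of 28 tested Ly49 and other lectin receptors, 5 were higher in KO lung, 13 were lower and 10 did not pass, with a median log2 change of -0.39. Klrb1c, which encodes NK1.1, had 1103, 1026, 1188 and 1180 CPM in KO lung, against 1918, 2730, 2336 and 2137 CPM in KO naive spleen (log2 change -1.02 ± 0.11 SE, adjusted p = 7.99e-08). The Ly49 genes Klra7 and Klra1 fell by 1.09 and 0.98 on the log2 scale, and Klrd1, the CD94 gene, fell by 0.62. Klra13-ps, a Ly49 pseudogene, went the other way, with 160 to 281 CPM in KO lung and 23.6 to 33.6 CPM in KO naive spleen. Clec2d, which encodes a ligand of the Klrb1 family, was higher as well, at 116 to 131 CPM in KO lung and 33.6 to 55.2 CPM in KO naive spleen. Ly49 genes share long stretches of sequence, so counts of single members are uncertain. Klra8, the Ly49H gene, averaged 744 CPM in KO lung and 624 CPM in KO naive spleen and did not pass (adjusted p = 0.19).

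Of 40 tested activating receptors, adaptors and proximal signalling genes, 8 were higher, 12 were lower and 20 did not pass. The shares over all genes tested were 24.3% higher and 18.1% lower. Ncr1, the FcRγ-associated receptor NKp46, had 526, 526, 526 and 539 CPM in KO lung, against 946, 1319, 1076 and 1113 CPM in KO naive spleen (log2 change -1.07 ± 0.11 SE, adjusted p = 3.89e-08). Sh2d1b2, the EAT-2b adaptor of SLAM family receptors, and the adhesion receptor Crtam were also lower (log2 changes -1.51 and -0.82). Sh2d2a, a T cell-specific adaptor that binds LCK, had 798 to 869 CPM in KO lung and 216 to 266 CPM in KO naive spleen (log2 change 1.80 ± 0.12 SE). Pik3r1, the regulatory PI3K subunit, and the calcium channel Orai1 rose by 1.29 and 1.37 on the log2 scale. The kinase Lck averaged 854 CPM in KO lung and 847 CPM in KO naive spleen (log2 change 0.01 ± 0.09 SE, adjusted p = 0.932).

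Genes of maturation and residency went in both directions. Of 21 tested genes of mature circulating NK cells, 5 were higher and 9 lower, with a median log2 change of -0.285. Of 19 genes of immature NK cells, 3 were higher and 8 lower, with a median of -0.314. In both lists more genes were called lower than higher, whereas over all genes tested 24.3% were higher and 18.1% lower. Klf2, a factor that maintains lymphocyte quiescence and egress, had 1328, 1329, 1309 and 1249 CPM in KO lung, against 876, 586, 618 and 630 CPM in KO naive spleen (log2 change 0.94 ± 0.16 SE, adjusted p = 4.69e-05). S1pr5, the sphingosine-1-phosphate receptor used by NK cells for egress, went the other way, at 199 to 264 CPM in KO lung and 420 to 517 CPM in KO naive spleen (log2 change -1 ± 0.14 SE). Kit, expressed by immature NK cells, was also lower, at 58.6 to 75.9 CPM in KO lung and 131 to 229 CPM in KO naive spleen. Myb rose to 52.1 ± 4.95 CPM in KO lung, against 18.2 ± 4.72 CPM in KO naive spleen. Itgam, the CD11b gene, and Tcf7 did not pass (adjusted p = 0.762 and 0.16).

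Of 26 tested genes of type 1 innate lymphoid cells and tissue residency, 7 were higher and 7 were lower. Among all genes tested, 24.3% were higher and 18.1% lower. Cd69, an early activation and retention marker, had 99.2, 100.3, 82.7 and 94.1 CPM in KO lung, against 23.5, 40.1, 40.2 and 38.9 CPM in KO naive spleen (log2 change 1.39 ± 0.17 SE). Itga1, the CD49a gene, was low in both groups, at 5.30 to 7.93 CPM in KO lung and 2.74 to 4.73 CPM in KO naive spleen. Its call (adjusted p = 0.0168) was lost without KO lung replicate 2 (adjusted p = 0.0533), without KO naive replicate 3 (adjusted p = 0.0588) and after a length and GC correction (adjusted p = 0.0814). Itgae, the CD103 gene, averaged 2.05 CPM in KO lung and 1.99 CPM in KO naive spleen and did not pass. The residency-associated Asb2 and Tnfsf10 were lower in KO lung.

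Receptors that guide migration changed in both directions, 6 higher and 7 lower of 20 tested. Among all genes tested, 24.3% were higher and 18.1% lower. Cxcr4, the CXCL12 receptor, had 473, 468, 457 and 585 CPM in KO lung, against 50.3, 90.5, 63.0 and 71.5 CPM in KO naive spleen (log2 change 2.85 ± 0.22 SE, adjusted p = 2.5e-10). Cxcr3, the receptor for interferon-induced chemokines, had 33.5, 45.1, 46.2 and 54.5 CPM in KO lung, against 159, 241, 175 and 184 CPM in KO naive spleen (log2 change -2.08 ± 0.18 SE, adjusted p = 1.60e-09). Ptger2 fell to 1.62 ± 0.369 CPM in KO lung, against 7.81 ± 2.73 CPM in KO naive spleen, while the other prostaglandin E2 receptor listed, Ptger4, rose (log2 change 0.79 ± 0.11 SE). Of 29 integrins and other adhesion molecules, 16 were lower and 4 were higher, with a median log2 change of -0.44. The sialomucin Spn and the integrin Itgax fell by 0.76 and 0.81 on the log2 scale, and no member changed by 2-fold. The count of higher members was 2 without KO lung replicate 2 and 1 after the length and GC correction.

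Among lineage and activation factors of NK cells, more were called higher than lower. Of 41 tested transcription factors, 20 were higher, 3 were lower and 18 did not pass. Bhlhe40, a basic helix-loop-helix repressor, had 1268 to 1342 CPM in KO lung and 232 to 261 CPM in KO naive spleen (log2 change 2.37 ± 0.11 SE, adjusted p = 1.92e-14). Irf8 had 2655, 2048, 2146 and 2087 CPM in KO lung, against 512, 372, 523 and 414 CPM in KO naive spleen (log2 change 2.29 ± 0.12 SE). Irf8 is also a myeloid gene, and its lowest KO lung value was that of replicate 2, the library with the highest macrophage sum. The part that the higher macrophage sum of KO lung plays in the change of Irf8 was not tested. The T-box factor Tbx21 was lower, at 416 to 496 CPM in KO lung and 534 to 836 CPM in KO naive spleen (log2 change -0.46 ± 0.12 SE, adjusted p = 0.00382). Eomes, the other T-box factor, had 800 to 837 CPM in KO lung and 572 to 774 CPM in KO naive spleen and did not pass (adjusted p = 0.0547). Ikzf1 and Tox were the other members that fell, and Ets1 did not pass (adjusted p = 0.371). With the length and GC correction 7 members were lower, and 5 without KO lung replicate 2.

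Of 28 tested genes of the TGF-β pathway, 13 were higher in KO lung, 4 were lower and 11 did not pass. Tgif1, a SMAD corepressor, had 116 to 130 CPM in KO lung and 13.7 to 22.8 CPM in KO naive spleen (log2 change 2.83 ± 0.14 SE, adjusted p = 4.72e-14). Pmepa1, a TGF-β-induced membrane protein that restrains SMAD signalling, had 21.2 to 26.1 CPM in KO lung and 1.10 to 1.85 CPM in KO naive spleen. The inhibitory Smad7 rose by 1.47 on the log2 scale. The receptors Tgfbr1 and Tgfbr2 and the shared mediator Smad4 were lower (log2 changes -0.71, -0.46 and -0.41), and Smad3 did not pass. Eng and Lrrc32, which endothelial cells express and which rose too, are counted among the 13. Of 43 cytokine receptors, JAK-STAT and SOCS genes, 13 were higher and 10 lower, beside 24.3% and 18.1% of all genes tested. Socs3, an inhibitor of cytokine receptors, averaged 315 ± 38.9 CPM in KO lung and 62.6 ± 12.2 CPM in KO naive spleen. The count of lower members was 6 without KO naive replicate 2 and 16 after the length and GC correction.

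Interferon-stimulated genes went in both directions, and MHC class I genes mainly down. Of 56 tested interferon-stimulated genes, 10 were higher, 18 were lower and 28 did not pass, with a median log2 change of -0.06. Among all genes tested, 24.3% were higher and 18.1% lower. The immunity-related GTPase gene Ifi47 had 90.7 to 104 CPM in KO lung and 248 to 325 CPM in KO naive spleen (log2 change -1.52 ± 0.11 SE, adjusted p = 4.26e-11), and Ifit2 fell by 1.16 on the log2 scale. Irf7, which drives type I interferon production, was higher, at 157 to 177 CPM in KO lung and 50.6 to 62.8 CPM in KO naive spleen (log2 change 1.5 ± 0.12 SE). Mx1 and Gbp8 rose too (log2 changes 2.42 and 1.70), while Irf1 did not pass (adjusted p = 0.101). Of 23 genes of MHC class I and peptide loading, 13 were lower and 3 higher, with a median log2 change of -0.42. Tapbp, the tapasin gene, had 318 to 355 CPM in KO lung and 536 to 754 CPM in KO naive spleen (log2 change -0.88 ± 0.12 SE), and the trimming enzyme Erap1 fell by 0.97 on the log2 scale. The higher members were the transactivator Nlrc5 and the class Ib genes H2-Q4 and H2-Q6, which are close in sequence to other H2 genes. Of 8 GIMAP GTPases, which support lymphocyte survival, 3 were lower and 0 were higher in the edgeR test, where 1 was higher at an unadjusted p under 0.05 and DESeq2 called 0 higher. Gimap7 and Gimap1 fell by 0.86 and 0.82 on the log2 scale, Gimap4 fell by 0.54, and the other 5 members did not pass, Gimap6 among them (log2 change 0.23, adjusted p = 0.0984). Under the length and GC correction 3 GIMAP genes were higher.

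Of 31 tested checkpoint, costimulatory and ectonucleotidase genes, 11 were higher and 11 were lower, beside 24.3% and 18.1% of all genes tested. The inhibitory receptor gene Lilrb4, which myeloid cells also express, averaged 17.8 ± 3.54 CPM in KO lung and 4.56 ± 1.42 CPM in KO naive spleen. Tnfrsf1b and Icos rose by 0.54 and 0.82 on the log2 scale, and Tigit by 0.87. The ectoenzyme Cd38 fell by 1.11 on the log2 scale and Cd7 by 1.06. The costimulatory receptor Tnfrsf9 averaged 122 CPM in KO lung and 135 CPM in KO naive spleen and did not pass.

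Among genes of the cell cycle, more were called lower than higher. Of 54 tested mitosis and S phase genes, 25 were lower, 3 were higher and 26 did not pass, with a median log2 change of -0.56. Nusap1, a spindle protein, had 1.58 to 3.75 CPM in KO lung and 6.67 to 9.43 CPM in KO naive spleen (log2 change -1.61 ± 0.23 SE), and the replication genes Rrm1 and Mcm4 fell by 0.64 and 0.58 on the log2 scale. The proliferation antigen Mki67 was an exception, at 20.4 to 25.7 CPM in KO lung and 1.79 to 7.13 CPM in KO naive spleen (log2 change 2.30 ± 0.42 SE, adjusted p = 0.000102). Cenpe also rose (adjusted p = 0.022), but did not pass when the 8 libraries were fitted alone (adjusted p = 0.245) or in voom (adjusted p = 0.0659). Its call was also lost without KO lung replicate 1 (adjusted p = 0.0649) and without KO naive replicate 4 (adjusted p = 0.0794). Pcna averaged 167 CPM in KO lung and 180 CPM in KO naive spleen and did not pass.

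Of 76 nuclear oxidative phosphorylation genes, 13 were lower, 0 were higher in the edgeR test and 63 did not pass. The 13 are near the share over all genes tested, of which 18.1% were lower and 24.3% higher. Sdha, Atp5a1 and Uqcrc2 were among the 13 (log2 changes -0.65, -0.52 and -0.46). At an unadjusted p under 0.05, 1 was higher in edgeR, and DESeq2 called 0 higher. With the 8 libraries alone, 2 were higher and 21 lower, voom called 4 higher, and the length and GC correction gave 5 higher and 20 lower. Of 15 transcripts of the mitochondrial genome, the ribosomal RNAs mt-Rnr1 and mt-Rnr2 were higher and 13 did not pass. mt-Rnr2 had 10966 to 12250 CPM in KO lung, against 2046, 5660, 3453 and 5908 CPM in KO naive spleen, with the low value in the replicate with the small mitochondrial share. Of 37 genes of glycolysis and the hypoxia response, 7 were higher and 7 were lower, with Pdk1 down (log2 change -1.17 ± 0.18 SE) and Eno1 not passing. Of 31 sterol and fatty acid synthesis genes, 9 were lower, such as Scd2 (log2 change -1.04 ± 0.12 SE), and 4 were higher, such as Insig1 (log2 change 1.04 ± 0.15 SE). Of 79 cytosolic ribosomal protein genes, 2 were higher and 1 lower, and after the length and GC correction 7 were higher and 9 lower.

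Glucocorticoid-responsive genes were mostly higher, and some of them, such as Dusp1 and Cxcr4, stand in lists given above too. Of 18 tested glucocorticoid response and metallothionein genes, 12 were higher and 1 was lower, with a median log2 change of 1.46. Per1, a clock gene that glucocorticoids and cyclic AMP induce, had 494, 406, 439 and 418 CPM in KO lung, against 28.7, 25.1, 22.2 and 34.2 CPM in KO naive spleen (log2 change 4.00 ± 0.18 SE, adjusted p = 1.92e-14). The kinase Sgk1 averaged 273 ± 28 CPM in KO lung and 68.3 ± 4.26 CPM in KO naive spleen. Txnip averaged 967 CPM in KO lung and 948 CPM in KO naive spleen and did not pass. Of 17 clock genes, 9 were higher and 8 did not pass, Nr1d2 among the 8. The labels do not give the hour at which each tissue was collected. Of 17 BCL2 family genes, 6 were higher and 3 lower, beside 24.3% and 18.1% of all genes tested. Bcl2a1d, a survival gene with near-identical copies, averaged 16.2 ± 2.27 CPM in KO lung and 1.86 ± 0.846 CPM in KO naive spleen. The pro-apoptotic genes Pmaip1 and Bcl2l11 rose by 1.70 and 1.14 on the log2 scale, and the anti-apoptotic Bcl2l1 fell by 0.75. Mcl1, also anti-apoptotic, fell by 0.22 (adjusted p = 0.0383), a call lost without any 1 of the 4 KO lung libraries or of KO naive replicates 1 to 3 (adjusted p from 0.0529 to 0.1). The Mcl1 call was also lost with no filter (adjusted p = 0.108) and after the length and GC correction (adjusted p = 0.11). The replicate block (adjusted p = 0.0528) and the fit of the 8 libraries alone (adjusted p = 0.0503) lost it as well.

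Among called genes with a mean of at least 20 CPM in the higher group, no overlap between libraries and no place in the marker lists, the 10 largest fitted rises were those of Hspa1a, Gpr116, Lpl, Hspa1b, Ier5l, Atf3, Sik1, Mpeg1, Nr4a2 and Itln1. Gpr116 is an adhesion receptor of lung epithelium and endothelium, and Lpl is lipoprotein lipase. Gpr116 had 20.6 to 31.5 CPM in KO lung and 0.116 CPM or less in KO naive spleen, in libraries whose endothelial and epithelial sums differed as given above. Mpeg1, a perforin-like gene of macrophages, had 15.3, 47.1, 29.8 and 25.9 CPM in KO lung, against 0, 1.31, 0.211 and 1.15 CPM in KO naive spleen, and was highest in the library with the highest macrophage sum. Sik1, a kinase that CREB induces, had 280 to 333 CPM in KO lung and 3.81 to 6.55 CPM in KO naive spleen. Itln1, a lectin gene on the chromosome of Fcer1g (GRCm38 chromosome 1, 171518122 to 171535294), had 39.0 to 42.0 CPM in KO lung and 0.548 to 2.38 CPM in KO naive spleen. In WT it averaged 0.128 CPM in lung and 0 CPM in naive spleen, so its fitted WT change rests on counts near 0. The largest falls under the same conditions were those of Lpar5, a lysophosphatidic acid receptor, with 2.5 to 3.87 CPM in KO lung and 16.5 to 27.0 CPM in KO naive spleen (log2 change -2.68 ± 0.22 SE), of the Toll-like receptor gene Tlr12 and of Cxcr3.

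The same contrast in WT, which shares no library with that in KO, gave 7021 calls (49.2%), 4171 higher (29.2%) and 2850 lower (20%) in WT lung. Of the genes called higher in KO, 2885 were also called higher in WT, which is 83.2% of the KO and 69.2% of the WT list. Of those called lower in KO, 1920 were also called lower in WT, 74.4% of the KO and 67.4% of the WT list, and 14 genes were called in opposite directions. The log2 change of Nr4a1 was 4.50 in KO and 5.14 in WT, that of Tnfaip3 was 4.31 in KO and 4.87 in WT, and that of Ncr1 was -1.07 in KO and -1.27 in WT.

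A test of the difference itself, the KO change minus the WT change, passed for 164 genes (1.15%), 24 with the KO change higher (0.168%) and 140 with it lower (0.981%). By at least 2-fold, 15 differed upward (0.105%) and 94 downward (0.658%). Among the named genes with the lower KO change, Myh9 had the largest difference. The cytoskeletal genes Plec (-1.92) and Tln1 (-1.84) were not set apart by size, with Rbm19 at -1.98 and Atp10d at -1.84. Myh9, the heavy chain of nonmuscle myosin, had 1506, 1702, 1504 and 1544 CPM in KO lung, against 857, 586, 394 and 471 CPM in KO naive spleen. In WT it averaged 1369 ± 334 CPM in lung and 93.8 ± 38.4 CPM in naive spleen (SD, n = 4 each). The lung levels of the genotypes were thus close and the naive levels apart, and the difference of changes was -2.43 ± 0.35 SE on the log2 scale (adjusted p = 0.0017). Tln1, the talin gene, averaged 1275 ± 84.9 CPM in KO lung, 960 ± 230 CPM in KO naive spleen, 1122 ± 243 CPM in WT lung and 237 ± 98.2 CPM in WT naive spleen (difference -1.84 ± 0.33 SE, adjusted p = 0.00707). These are long transcripts, and over genes whose exons add up to 10 kb or more the median log2 change was 0.29 in KO and 0.56 in WT, against -0.02 in KO and -0.21 in WT for genes under 1.5 kb. After the length and GC correction the differences of Myh9, Plec and Tln1 were -1.93, -1.16 and -1.43 and each passed.

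Among genes with the higher KO change, Ccl6, a CC chemokine of myeloid cells, had 16.3, 36.1, 25.4 and 22.5 CPM in KO lung, against 0.964, 1.31, 0.253 and 0.833 CPM in KO naive spleen. In WT it averaged 10.8 ± 3.61 CPM in lung and 6.59 ± 1.24 CPM in naive spleen, and the difference of changes was 4.2 ± 0.53 SE (adjusted p = 0.000196). Its KO lung libraries followed the order of the macrophage sum in their highest and lowest values, replicates 2 and 1. That sum was 153.1 to 640.4 CPM in KO lung and 58.95 to 136.5 CPM in WT lung. In naive spleen, where Ccl6 was lower in KO than in WT, the sum was 8.773 to 18.66 CPM in KO and 6.785 to 11.14 CPM in WT. The part that macrophages play in the difference of Ccl6 was not tested. Ifi204, an HIN-200 DNA sensor gene on chromosome 1 (173747293 to 173766876), averaged 26.0 ± 3.77 CPM in KO lung, 7.39 ± 2.34 CPM in KO naive spleen, 2.92 ± 1.62 CPM in WT lung and 4.96 ± 2.44 CPM in WT naive spleen (difference 2.65 ± 0.48 SE, adjusted p = 0.00707). Fcer1g lies on the same chromosome. The granzyme gene Gzmk averaged 3.41 CPM in KO lung, 4.91 CPM in KO naive spleen, 2.07 CPM in WT lung and 12.9 CPM in WT naive spleen (difference 2.14 ± 0.45 SE, adjusted p = 0.0198). Crem rose more in KO than in WT (difference 0.93 ± 0.19 SE, adjusted p = 0.0127), with lung levels of 203 CPM in KO and 215 CPM in WT and naive levels of 14.1 CPM in KO and 28.7 CPM in WT. The count of 164 was not stable to single libraries. It was 96, 89, 72 and 79 without KO lung replicates 1 to 4, 114, 120, 244 and 153 without KO naive replicates 1 to 4, 570, 97, 72 and 98 without WT lung replicates 1 to 4, and 363, 72, 73 and 203 without WT naive replicates 1 to 4. Genes with the lower KO change numbered 93 without KO naive replicate 1 and 217 without KO naive replicate 3, against 140 with all libraries, and those with the higher KO change numbered 15 without KO naive replicate 2, against 24. WT lung replicate 1 held 9.775 M counts and stood apart in the fourth principal component. For Gzmk the call was lost without WT lung replicate 3 and without WT naive replicate 3 (adjusted p = 0.0533 and 0.0606), while the calls of Myh9, Tln1, Ccl6 and Ifi204 passed in every alternative.

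**Figure D5:**
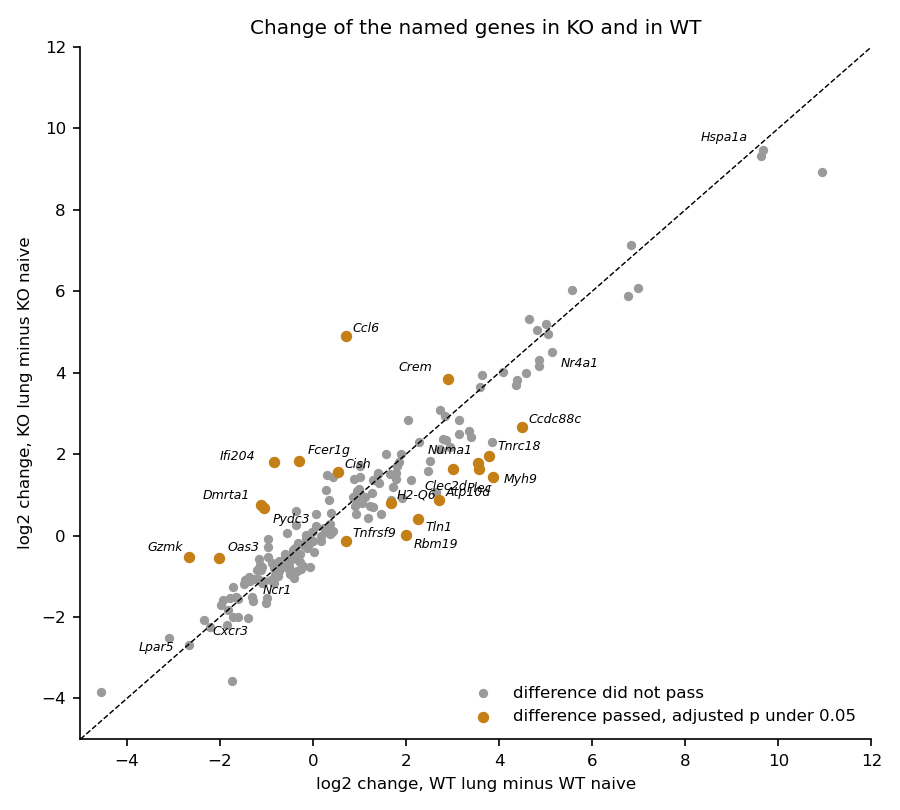
Fitted log2 change in KO (vertical, KO lung minus KO naive spleen) against that in WT (horizontal, WT lung minus WT naive spleen) for 195 named genes, with the line of equal change dashed. The 20 genes whose difference passed are in orange. Most genes lie near the line, Ccl6, Ifi204 and Fcer1g above it and Myh9, Tln1 and Rbm19 below it. Genes at or near 0 CPM in a group, such as Itln1 in WT, have fitted changes that depend on the model.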

How the data were processed

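The deposited table held expected counts per gene, estimated by the authors and not normalized, for 38215 genes in 24 libraries, with 5.47% of values not whole (tolerance 1e-06). The submitters' processing notes name cutadapt 1.9, STAR 2.5.2a, RSEM 1.2.30 and GRCm38. Per the labels' protocols, RNA was made into directional poly(A) libraries, and no source used here says whether counting used strand. Reads shared by near-identical genes are divided by estimate in such values.

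Expected counts were rounded and tested with edgeR 4.0.16 (R 4.3.3) by the quasi-likelihood test over all 24 libraries in 6 groups, after TMM scaling and filtering of low genes by filterByExpr, which left 14275 genes. P-values were adjusted by Benjamini-Hochberg over all genes tested, with a threshold of 0.05, and are two-sided. CPM are counts per M of the TMM-scaled total of a library. DESeq2 1.42.0, voom (limma 3.58.1), other filters and scalings, the replicate number as a block, a length and GC offset and leaving out each library were alternatives. Libraries held 9.683 to 32.1 M counts. Whether replicates came from separate mice is not stated beyond the word biological, so p-values measure the spread between these libraries.

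On simulated counts of the KO comparison (13756 genes), 34.3% of 67 genes altered 1.5-fold, 76.1% of 67 altered 2-fold and 93.9% of 66 altered 4-fold were recovered. Of all calls, 4.23% were false. The altered genes were drawn from abundant genes only and were few beside the calls in the data, so recovery among sparse genes was not measured. The members, lists and tests were chosen with earlier results of these data known. Named genes were Fcer1g, the 10 largest rises and 10 largest falls among genes that reached 20 CPM in the higher group and did not overlap, up to 3 members of each list in each direction by smallest p, its most abundant member that did not pass, the 8 largest differences between genotypes each way among genes reaching 10 CPM in a group, and 11 NK cell genes. Genes chosen after their values were seen were Btg2, Ccl4, Chordc1, Dnajb6, Eng, Fos, Fosb, Hsp90aa1, Hspd1, Hspe1, Hsph1, Il16, Jun, Junb, Klra1, Klrd1, Lrrc32, Myc, Nfkbia, Nfkbid, Nfkbiz, Ppp1r15a, Smad7, Tigit and Tnfsf11, and the single markers of other cells.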

Additional observations from a re-analysis of the deposited data

Results flagged for a closer look

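Of 390 groups of 4 libraries examined for the named genes, 21 held a library whose gap to the nearest other exceeded Dixon's 95% critical share of the group's range, and chance gives about 1 in 20 such groups. In KO lung, replicate 1 stood apart for Irf8 (2655 CPM, others 2048 to 2146). Replicate 2 stood apart for Lamp2 (49 CPM, others 45.8 to 46.2), mt-Co1 (32115 CPM, others 24567 to 25253) and Tnrc18 (111 CPM, others 96.6 to 97.9). Replicate 4 stood apart for Clec2d (116 CPM, others 129 to 131), Ncr1 (539 CPM, others 526), Cxcr4 (585 CPM, others 457 to 473), Irf7 (177 CPM, others 157 to 158) and Gimap6 (1070 CPM, others 865 to 880).

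In KO naive spleen, the shallow replicate 1 stood apart for Hspa1b (6.84 CPM, others 1.92 to 2.74), Cd69 (23.5 CPM, others 38.9 to 40.2), Klf2 (876 CPM, others 586 to 630), Pim3 (87.9 CPM, others 43.9 to 50.9) and Gm14446 (11.2 CPM, others 24.6 to 26.1). Replicate 2 stood apart for Gpr116 (0.116 CPM, others 0), Nr4a2 (12.2 CPM, others 7.52 to 8.27) and Erap1 (214 CPM, others 158 to 164). Replicate 3 stood apart for Pcna (214 CPM, others 168 to 170), and replicate 4 for Lpl (0.159 CPM, others 0), Itga3 (3.69 CPM, others 6.27 to 6.55) and Sc4mol (16.5 CPM, others 29.6 to 30.4).

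Of the 164 genes whose change differed between genotypes by the interaction term in edgeR, the 8 largest differences each way among abundant genes are given. The KO change minus the WT change on the log2 scale was -2.43 for Myh9, -1.98 for Rbm19, -1.92 for Plec, -1.84 for Atp10d, -1.84 for Tln1, -1.83 for Ccdc88c, -1.83 for Tnrc18 and -1.76 for Numa1. It was 4.2 for Ccl6, 2.65 for Ifi204, 2.14 for Fcer1g, 2.14 for Gzmk, 1.86 for Dmrta1, 1.72 for Pydc3, 1.49 for Oas3 and 1.01 for Cish. The call was lost for Cish in 16 alternatives (adjusted p from 0.0532 to 0.151), among them the replicate block (0.0676) and the compared groups alone (0.151). It was lost for Oas3 with the compared groups alone (adjusted p = 0.0652) and without KO lung replicate 3 or 4 or WT lung replicate 3 (0.0512 to 0.0589). Leaving out single libraries ended it for Pydc3 in 5 cases (adjusted p from 0.0509 to 0.0671), for Tnrc18 in 5 (0.0506 to 0.0606), for Ccdc88c in 4 (0.0557 to 0.0616) and for Gzmk in 2 (0.0533 and 0.0606).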

How the results depend on the processing

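Of 160 named genes that passed in KO lung against KO naive spleen, 149 passed under every alternative in which they could be tested, 0 changed sign, and Bach2, Cenpe, Dmrta1, Gimap4, Itga1, Itga3, Mcl1, Pydc3, Rpl29, Rps3 and Sqle were lost at least once. Without KO naive replicate 1 the calls of Bach2, Mcl1, Pydc3, Rpl29 and Rps3 were lost (adjusted p = 0.0661, 0.1, 0.134, 0.102 and 0.0752). The number of genes that passed was 5186 to 7048 over the alternatives that kept all libraries and 5400 to 6214 when 1 library was left out (3145 to 3591 higher, 2255 to 2623 lower, 1895 to 2153 at least 2-fold higher, 452 to 549 at least 2-fold lower). Genes at least 2-fold higher numbered 1144 with at least 5 CPM in 4 libraries, where fewer genes were tested. The length and GC offset gave 3100 higher and 3363 lower.

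The difference between genotypes (164 genes, 24 with the higher and 140 with the lower KO change) gave 520, 92 and 428 with DESeq2, 502, 104 and 398 with voom, and 71, 8 and 63 with the compared groups alone. It gave 276 genes, 243 of them lower, with the 5 CPM filter, and 62 higher with the length and GC offset. Leaving out 1 library gave 72 to 570 genes, 9 to 160 higher and 61 to 410 lower, and the cause was not tested. The WT count was 6290 to 7479 when 1 WT library was left out (3788 to 4256 higher, 2502 to 3223 lower) and 5992 to 8153 over the alternatives that kept all libraries.

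Same-numbered KO lung and KO naive libraries deviated from their group means with correlations of 0.00236, 0.0172, 0.0316 and 0.0186. These low values gave no sign of pairing by number and cannot exclude it. With the replicate block 5942 genes passed, 3436 higher and 2506 lower. Counts of list members under each alternative were added after seeing the data. Calls at low CPM are limited by depth, most of all in KO naive replicate 1.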
